A study of Mus musculus with 12 samples.

Results

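Red blood cell transcripts were followed across 12 mouse malignant peripheral nerve sheath tumours, sarcomas of the nerve sheath. The set was fixed by name as 7 genes: the adult alpha globins Hba-a1 and Hba-a2, the adult beta globins Hbb-bs and Hbb-bt, the haem synthesis enzyme gene Alas2, the anion exchanger gene Slc4a1 and the alpha globin chaperone gene Ahsp. Of these, 6 were found among the 54532 genes counted, and Ahsp was not analysed here. All 6 passed the filter on low counts, which kept 15650 genes.

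The terminal combination group held 4 tumours from mice dosed daily by oral gavage with palbociclib at 100 mg/kg, which inhibits the cell cycle kinases CDK4 and CDK6, and mirdametinib at 1 mg/kg, which inhibits MEK, and taken at the terminal time point. The regressing group held 4 tumours from mice on the same drugs, doses and route, taken during regression. The vehicle group held 4 tumours from mice gavaged with vehicle and taken at the terminal time point. All mice were labelled strain C57B/6 and genotype WT, and every tumour, those of the vehicle group included, had been started with an adenovirus carrying a Cas9 system against Nf1 and a gene spelled Cdk2na in the labels, read here as Cdkn2a. The design text speaks of combination-sensitive and combination-resistant tumours, and the labels do not tie either word to a group. Ages, and whether each tumour came from its own mouse, are not given in the sources used here, so p-values measure only the spread between these samples.

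Haemoglobin is made of alpha and beta chains, each holding a haem group that binds oxygen. Alas2 encodes the red cell form of the enzyme that opens haem synthesis, and Slc4a1 encodes band 3, which exchanges chloride and bicarbonate across the red cell membrane and anchors the membrane skeleton. Mammalian red cells lose their nucleus, and the youngest ones in the circulation, the reticulocytes, still carry globin messenger RNA. In the whole tumour samples measured here, fewer red cells and less RNA per red cell cannot be told apart.

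The libraries held 13194699 to 22639625 counted reads, and 1 terminal combination, 1 regressing and 2 vehicle libraries had titles ending in FFT, an ending the labels do not explain. The tissue label was checked against 14 genes of the Schwann lineage and of nerve sheath tumours: Nes, an intermediate filament of neural progenitors, averaged 274 ± 227, 87.3 ± 35.3 and 262 ± 103 CPM in terminal combination, regressing and vehicle tumours (SD, n = 4 each; CPM, reads scaled to a common normalised library size). Sox10, the lineage's transcription factor, averaged 0.818 ± 0.905, 0.926 ± 0.282 and 0.0341 ± 0.0418 CPM in the same order of groups, and that vehicle level lay under the 0.128 to 0.231 CPM that a count of 0 allows (3 counts in a library). Of the 12 genes of this list that were tested, 5 were higher and 7 lower in regressing than in vehicle tumours, and 9 higher and 3 lower in terminal combination than in vehicle tumours. EdgeR called no gene of this or any other list named here in any comparison.

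The promoters of the globin genes and of Alas2 are shown because these genes varied together between tumours, as described further on. Each is the 250 bases before the start that RefSeq gives (GRCm38.p6), 5′ to 3′ on the gene's own strand, with matches to 4 short motifs in capitals: GATAA, the core that GATA factors bind, CACCC, bound by KLF factors, CCAAT, bound by NF-Y, and TATAA, the core of the TATA box. Both strands were searched, so the reverse complements of these motifs are in capitals as well, and no match to 1 motif overlaps a match to another. The Slc4a1 promoter is not shown.
Hba-a1, chr11:32283422-32283671 (+): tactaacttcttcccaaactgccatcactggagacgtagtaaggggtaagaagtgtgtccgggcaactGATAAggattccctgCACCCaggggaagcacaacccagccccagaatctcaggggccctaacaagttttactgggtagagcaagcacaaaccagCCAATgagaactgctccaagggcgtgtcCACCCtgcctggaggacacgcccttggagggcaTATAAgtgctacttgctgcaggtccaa
Hbb-bs, chr7:103827929-103828178 (-): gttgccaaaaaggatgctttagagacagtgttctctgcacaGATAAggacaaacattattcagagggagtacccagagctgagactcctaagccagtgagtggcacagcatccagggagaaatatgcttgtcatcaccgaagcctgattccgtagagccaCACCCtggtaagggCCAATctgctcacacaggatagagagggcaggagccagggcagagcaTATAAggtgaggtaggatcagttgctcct
Hbb-bt, chr7:103813924-103814173 (-): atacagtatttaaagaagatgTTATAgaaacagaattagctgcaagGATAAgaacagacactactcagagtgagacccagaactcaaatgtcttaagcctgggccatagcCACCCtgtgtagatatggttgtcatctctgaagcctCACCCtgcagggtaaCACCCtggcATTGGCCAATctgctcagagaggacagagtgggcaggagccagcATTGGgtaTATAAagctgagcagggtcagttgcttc
Alas2, chrX:150547167-150547416 (+): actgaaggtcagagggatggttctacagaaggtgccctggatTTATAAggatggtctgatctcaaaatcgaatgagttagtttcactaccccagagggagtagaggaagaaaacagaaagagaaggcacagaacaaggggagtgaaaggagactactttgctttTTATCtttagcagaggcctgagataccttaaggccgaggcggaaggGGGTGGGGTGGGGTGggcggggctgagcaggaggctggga
The Hba-a2 window, chr11:32296242-32296491 (+), shares a stretch of 247 bases with that of Hba-a1 and is not repeated. The longest stretch shared by the Hbb-bs and Hbb-bt windows was 14 bases. GATAA occurred in all 5 windows, as did CACCC and TATAA, while CCAAT occurred in the 4 globin windows and not in the Alas2 window. Among 32851 windows of the same length, GATAA occurred in 22.6%, CACCC in 52%, CCAAT in 33.8% and TATAA in 22.8%, and all 4 together in 0.968%. In Alas2 the 2 TATAA matches, 1 on each strand, overlap each other and start at -208 and -207 from the RefSeq start. A TATAA started at -27 in Hba-a1, -29 in Hbb-bs and -28 in Hbb-bt. The gene positions given below are those of GENCODE M21 and begin before these RefSeq starts, so each window overlaps its gene's interval there. These are letter matches and not measured binding, and their part in the shared variation between tumours was not tested.

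The alpha globin genes lie on chromosome 11 (GRCm38), Hba-a1 (ENSMUSG00000069919) at 32283511 to 32284465 and Hba-a2 (ENSMUSG00000069917) at 32296489 to 32297298, both on the plus strand. Hba-a1 had 124, 259, 118 and 264 CPM in terminal combination replicates 1 to 4, 182, 640.2, 24.3 and 256 CPM in regressing replicates 1 to 4, and 19.2, 16.2, 37.7 and 116 CPM in vehicle replicates 1 to 4. The terminal combination tumours all lay above the vehicle tumours, the closest pair being 118 against 116 CPM, and the regressing tumours spanned both, with replicate 2 the highest of all 12 and replicate 3 inside the vehicle range. Hba-a2 had 54.2, 171, 55.9 and 149.6 CPM in terminal combination tumours, 86.2, 299, 11.4 and 152 CPM in regressing tumours and 7.87, 11.2, 20.9 and 66.5 CPM in vehicle tumours. Vehicle replicate 4 lay above terminal combination replicates 1 and 3 for this gene, so those groups overlapped.

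The beta globin genes lie on the minus strand of chromosome 7, Hbb-bs (ENSMUSG00000052305) at 103826534 to 103828096 and Hbb-bt (ENSMUSG00000073940) at 103812524 to 103813996. Hbb-bs had 161, 278, 172 and 452 CPM in terminal combination tumours, 267, 908, 38 and 275 CPM in regressing tumours and 29.2, 25.3, 57.8 and 152 CPM in vehicle tumours. Hbb-bt had 31.4, 66.7, 41.5 and 126 CPM in terminal combination tumours, 52.4, 220.1, 8.96 and 45.4 CPM in regressing tumours and 5.56, 6.5, 11.8 and 30.5 CPM in vehicle tumours. For both genes the terminal combination and vehicle ranges did not overlap, regressing replicate 2 was the highest of all 12 tumours, and regressing replicate 3 fell inside the vehicle range.

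Alas2 (ENSMUSG00000025270; plus strand of chromosome X, 150547375 to 150570638) had 11.5, 9.89, 14.5 and 40.8 CPM in terminal combination tumours, 16, 64.7, 3.64 and 12.5 CPM in regressing tumours and 1.88, 1.5, 3.61 and 7.7 CPM in vehicle tumours. It followed the globins: no terminal combination tumour was as low as the highest vehicle tumour, and regressing replicates 2 and 3 were again the highest and lowest of their group. The gene overlaps Apex2, a DNA repair gene on the other strand that stood at 7.48 to 18.8 CPM, and the strand used in counting is not given in the sources used here, so reads of the pair may not be told apart.

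Slc4a1 (ENSMUSG00000006574; minus strand of chromosome 11, 102348824 to 102366203) was near the limit of the depth, with 5, 15, 9 and 60 reads in terminal combination tumours, 14, 92, 17 and 0 reads in regressing tumours and 1, 14, 5 and 2 reads in vehicle tumours. These were 0.256, 0.893, 0.44 and 3.42 CPM, 0.892, 5.34, 0.754 and 0 CPM, and 0.0428, 1, 0.254 and 0.117 CPM in the same order. The highest reading of each treated group came from the tumour that also led it for Hbb-bs and Alas2, while regressing replicate 4, with 256 CPM of Hba-a1, had no Slc4a1 read.

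**Figure D1:**
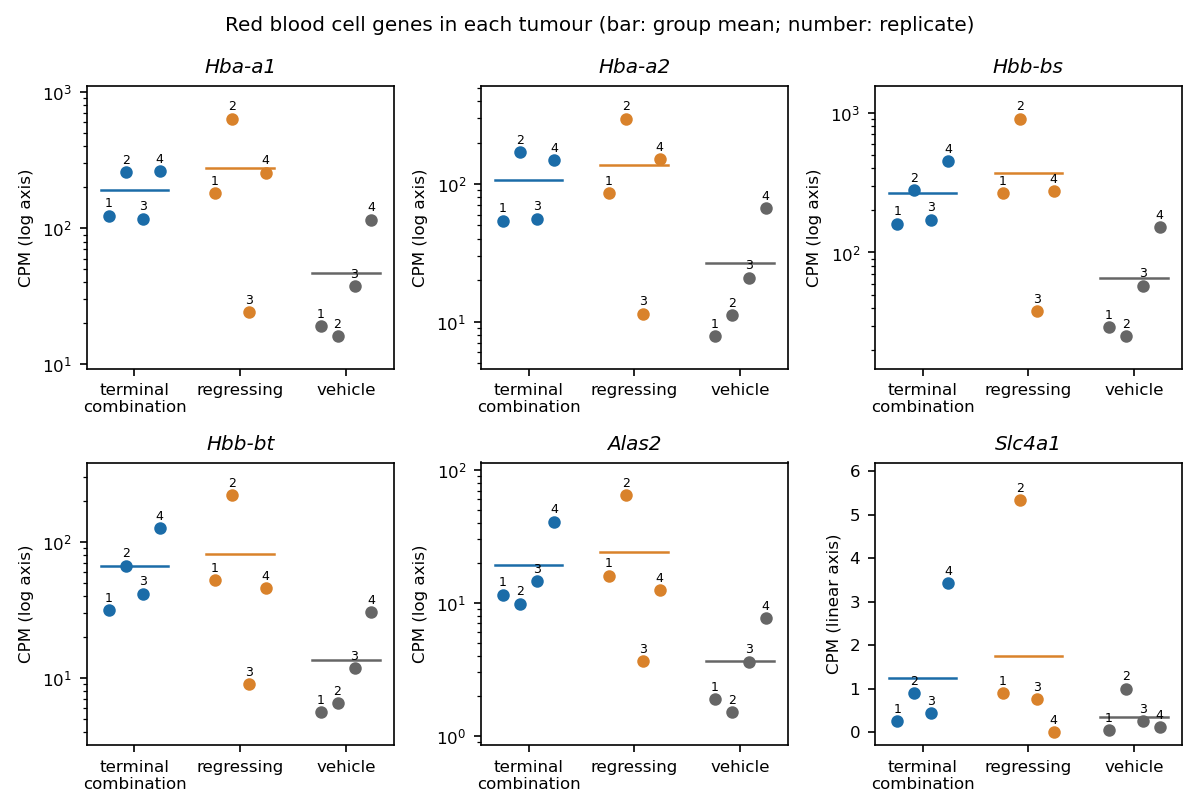
CPM of the 6 red cell genes in each tumour, on a log axis for 5 genes and a linear axis for Slc4a1, with 1 panel per gene and the terminal combination, regressing and vehicle groups from left to right; points are tumours numbered by replicate and bars are group means. For Hbb-bs the 4 terminal combination tumours sit at 161 to 452 CPM, above the vehicle tumours at 25.3 to 152 CPM, and the regressing tumours spread over 38 to 908 CPM.

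By the ratio of the highest to the lowest tumour, the regressing group spread the most. For the 5 genes other than Slc4a1, the highest regressing tumour was 17.8 to 26.4 times the lowest, against 2.22 to 4.13 times in the terminal combination group and 5.13 to 8.44 times in the vehicle group. By the coefficient of variation the vehicle group was the wider for Hba-a1, at 94.9% in regressing and 99.2% in vehicle tumours, and for Hba-a2, at 89.3% in regressing and 102% in vehicle tumours. Together the 4 globin genes took 0.0365%, 0.071%, 0.0414% and 0.0968% of all reads in terminal combination tumours, 0.0526%, 0.208%, 0.00849% and 0.0715% in regressing tumours and 0.00638%, 0.00585%, 0.0138% and 0.0381% in vehicle tumours. The highest and the lowest of the 12 shares differed 35.6-fold.

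The regressing and vehicle groups were compared to ask how red cell transcripts stood in tumours taken during regression. The 6 genes averaged several times more in regressing tumours, but replicate 3 sat with the vehicle tumours and none passed the adjusted threshold of 0.05 in edgeR's quasi-likelihood test, where 0 of 15650 genes did (0%). Hba-a1 averaged 276 ± 262 CPM in regressing tumours and 47.4 ± 47 CPM in vehicle tumours, Hbb-bs 372 ± 374 against 65.9 ± 58.9 CPM (SD, n = 4 each). The fitted log2 differences were 2.54 ± 0.86 (SE) for Hba-a1, 2.37 ± 0.90 for Hba-a2, 2.50 ± 0.84 for Hbb-bs and 2.59 ± 0.88 for Hbb-bt, with edgeR adjusted p of 0.281, 0.315, 0.28 and 0.281. Alas2 averaged 24.2 ± 27.5 CPM in regressing tumours against 3.67 ± 2.84 CPM in vehicle tumours, with a log2 difference of 2.72 ± 0.86 (edgeR adjusted p = 0.271). Slc4a1 averaged 1.75 ± 2.43 against 0.354 ± 0.44 CPM and had a log2 difference of 2.35 ± 1.31 (edgeR adjusted p = 0.476).

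Before adjustment, 5 of the 6 genes had an edgeR p under 0.05, all but Slc4a1, and all 5 were higher in regressing tumours, a state shared by 6.72% of all genes tested. DESeq2, the alternative tool, called Hba-a1, Hbb-bs, Hbb-bt and Alas2 higher in regressing tumours, with adjusted p of 0.0425, 0.0402, 0.0422 and 0.0243, beside 2.12% of the genes it tested; Hba-a2 stood at 0.0841 and Slc4a1 at 0.375. Its calls in this comparison also included 9 of 15 skeletal muscle and 9 of 11 adipocyte genes, all higher in regressing tumours. The median log2 difference was 2.52 over the 6 genes and -0.02 over all genes. For none of the 6 did the groups separate, a pattern seen for 3.5% of all genes in this direction, and for the globins and Alas2 it was 3 of 4 regressing tumours that exceeded the highest vehicle tumour. The DESeq2 calls and the unadjusted edgeR p under 0.05 rested on regressing replicate 2. Without it the log2 differences were 1.72 for Hba-a1, 1.66 for Hba-a2, 1.57 for Hbb-bs, 1.40 for Hbb-bt, 1.55 for Alas2 and 0.71 for Slc4a1. No gene of the 6 then had an unadjusted edgeR p under 0.05. Counted in both directions, the share of all genes at that level was 13.8%, against 12.7% with all libraries. DESeq2 then called none of the 6, while 4 had an unadjusted DESeq2 p under 0.05, beside 10.4% of all genes in both directions.

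Terminal combination and vehicle tumours were both taken at the terminal time point, so this pair differs by treatment and not by the harvest label. Hba-a1, Hbb-bs, Hbb-bt and Alas2 were higher in all 4 terminal combination tumours than in any vehicle tumour, a separation found for 1.21% of all genes in that direction. Hba-a1 averaged 191 ± 80.9 CPM in terminal combination tumours and 47.4 ± 47 CPM in vehicle tumours, and Alas2 averaged 19.2 ± 14.6 against 3.67 ± 2.84 CPM (SD, n = 4 each). The log2 differences were 2.01 ± 0.85 (SE) for Hba-a1, 2.02 ± 0.89 for Hba-a2, 2.01 ± 0.82 for Hbb-bs, 2.29 ± 0.87 for Hbb-bt and 2.38 ± 0.85 for Alas2. Each of these 5 had an edgeR adjusted p of 0.819, which was also the smallest of any gene in this comparison, where edgeR called 0%. Slc4a1 stood at 1.86 ± 1.31 with an edgeR adjusted p of 0.876, and at 0.63 without terminal combination replicate 4 and 3.13 without vehicle replicate 2. Without that vehicle tumour its difference between regressing and vehicle tumours was 3.62.

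The unadjusted edgeR p was under 0.05 for the same 5 genes, beside 3.35% of all genes that were higher at that level, and DESeq2 called none of the 6 (adjusted p 0.319 to 0.975) while it called 0.0502% of its genes. The median log2 difference was 2.01 over the 6 genes and 0.00 over all genes. The number at unadjusted p was 0 without terminal combination replicate 4, 2 without terminal combination replicate 2, 3 without regressing replicates 1 and 4 together, and 1 without vehicle replicate 1, 2 or 3. Over all genes and in both directions, the share at that level was 5.94% with all libraries, and 4.43%, 3.65% and 6.41% under the first 3 of these settings. It was 6.98%, 6.86% and 3.61% without vehicle replicate 1, 2 and 3. Among the 8 libraries whose titles lack FFT, the differences in Hba-a1 were 1.47 for terminal combination and 1.99 for regressing tumours against vehicle. Of the 6 genes, 0 had an unadjusted edgeR p under 0.05 in either comparison, beside 6.8% and 7.9% of all genes. By unadjusted DESeq2 p the numbers in these libraries were 0 and 5, beside 6.33% and 7.11% of all genes.

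Terminal combination and regressing tumours had the same drugs and differed in harvest. None of the 6 genes separated these groups, while 2.4% of all genes were higher and 1.51% lower in every terminal combination tumour. The log2 differences were -0.53 ± 0.82 (SE) for Hba-a1, -0.35 ± 0.85 for Hba-a2, -0.49 ± 0.80 for Hbb-bs, -0.30 ± 0.83 for Hbb-bt, -0.34 ± 0.80 for Alas2 and -0.49 ± 1.21 for Slc4a1. The edgeR adjusted p ran from 0.908 to 0.949, with 0% of all genes called, and DESeq2, which called 0.449% of its genes, called none of the 6. The median log2 difference was -0.42 over the 6 genes and 0.01 over all genes. No unadjusted edgeR p was under 0.05 for the 6, beside 7.02% of all genes. The direction depended on 1 tumour, since without regressing replicate 2 all 6 differences were positive, 0.30 for Hba-a1 and 0.83 for Alas2.

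**Figure D2:**
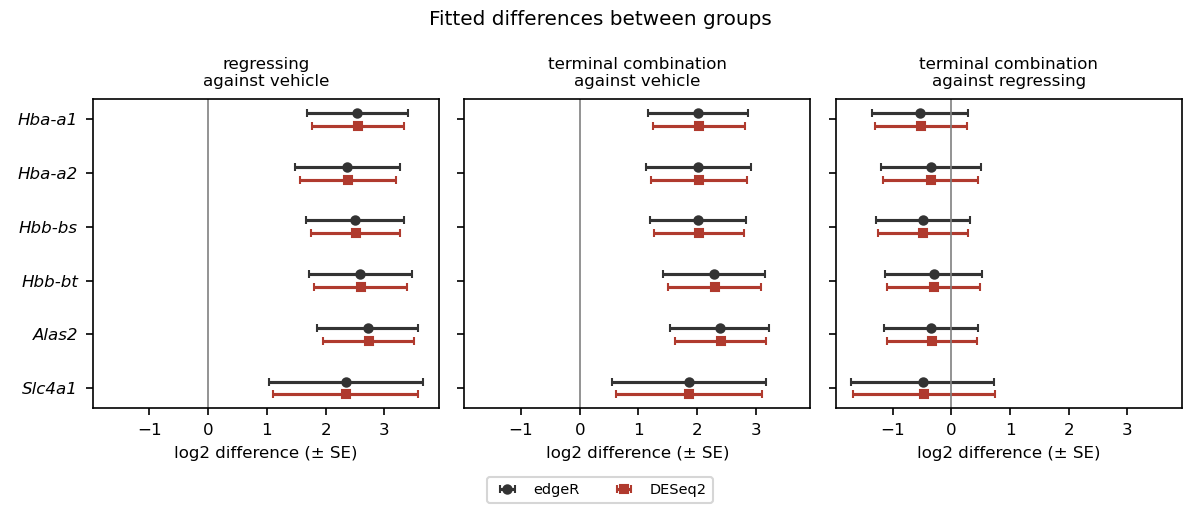
Fitted log2 differences of the 6 red cell genes for regressing against vehicle, terminal combination against vehicle and terminal combination against regressing tumours, from edgeR (circles) and DESeq2 (squares); bars are 1 standard error. In edgeR the comparisons with vehicle lie at 1.86 to 2.72 and that between the treated groups at -0.53 to -0.30, and the bars of every gene cross 0 in the last comparison alone.

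Set per kilobase of exon, so that genes of different length can be compared, the levels had 1 order in 12 of 12 libraries: Hbb-bs, Hba-a1, Hba-a2, Hbb-bt, Alas2 and Slc4a1, from high to low. The median ratio of neighbours was 1.54 for Hbb-bs over Hba-a1, 1.61 for Hba-a1 over Hba-a2, 1.78 for Hba-a2 over Hbb-bt, 11.2 for Hbb-bt over Alas2 and 28.9 for Alas2 over Slc4a1. The order inside each globin pair carries a limit of counting. The Hba-a1 transcript shares 67.5% of its 50-base words with Hba-a2 and 86.9% the other way, and Hbb-bs shares 65.8% with Hbb-bt and 58.3% the other way. The longest identical stretches were 415 and 430 bases. How such reads were divided is not given in the sources used here, so the split within a pair is uncertain, as are a pair's sum and the alpha share of globin if shared reads were dropped or counted in both genes. With each pair summed, alpha globin differed by 2.48 and beta globin by 2.51 on the log2 scale between regressing and vehicle tumours, and by 2.01 and 2.06 between terminal combination and vehicle tumours.

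The alpha share of globin reads varied less than the amount of globin, by 1.34-fold against 35.6-fold over the 12 tumours. Alpha globin was 47.5% ± 5.86, 47.6% ± 5.7 and 46.5% ± 2.64 of globin reads in terminal combination, regressing and vehicle tumours (SD, n = 4 each). A pair of treated tumours stood above the other 10, terminal combination replicate 2 at 55.4% (95% Wilson interval 54.6 to 56.3%) and regressing replicate 4 at 55.9% (54.9 to 56.9%), while the others lay at 41.7% to 50.1%. The same tumours had the fewest Alas2 reads per 1000 globin reads, 12.8 (11 to 14.8) and 17.2 (14.7 to 20), against 21.1 to 44 elsewhere. Their shares of mitochondrial reads, 1.49% and 2.14%, were the highest of their groups, whose ranges were 0.785% to 1.49% and 0.839% to 2.14%, while regressing replicate 1, at 1.95%, had an alpha share of 45.7% and 27.2 Alas2 reads per 1000 globin reads. The part of mitochondrial reads in the result was not tested. Hba-a1 was 59.1% to 70.9% of alpha reads and Hbb-bs 78.2% to 85.9% of beta reads over the 12 tumours. The intervals cover counting error only.

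Slc4a1 did not keep a fixed ratio to globin. It gave 16.9 reads per 1000 globin reads in vehicle replicate 2 (10.1 to 28.1) and 9.13 in regressing replicate 3 (5.71 to 14.6), which are among the 3 libraries with the least globin, and 0.32 to 3.46 in the other tumours with any read. Regressing replicate 4 had 0 Slc4a1 reads beside 9438 globin reads, which allows up to 0.318 per 1000.

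**Figure D3:**
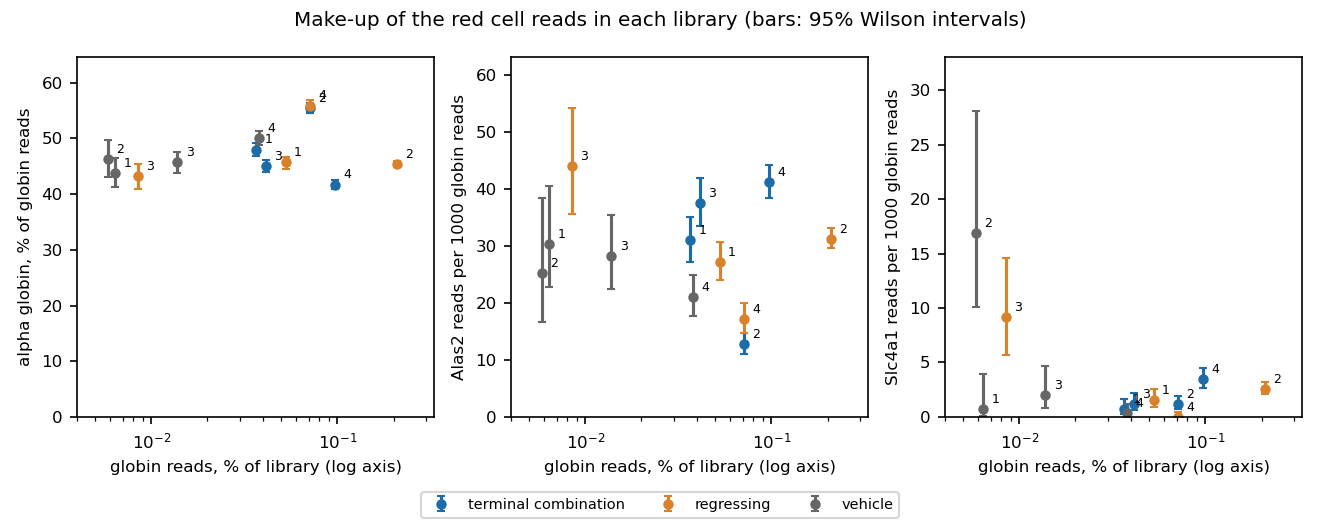
Alpha globin as a percentage of globin reads, and Alas2 and Slc4a1 reads per 1000 globin reads, against the globin share of each library on a log axis; points are tumours numbered by replicate, bars are 95% Wilson intervals and colours are groups. Terminal combination replicate 2 and regressing replicate 4 stand apart with 55.4% and 55.9% alpha globin and 12.8 and 17.2 Alas2 reads per 1000.

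Across the 12 libraries, log2 CPM of the 4 globin genes correlated at Pearson's r of 0.97 to 0.99 between each pair, and Alas2 correlated with them at 0.90 to 0.97. Slc4a1 correlated with the other 5 at 0.38 to 0.55. After group means were removed, r was still 0.84 to 0.99 among the globins and Alas2. These values describe libraries that share depth and processing, and genes of a pair that may share reads.

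The genes whose pattern over the 12 libraries was most like the mean of the 6 were then listed, as a description. Apol11b, an apolipoprotein L family gene, came first with r = 0.93 (Spearman's rho = 0.91) and 1.84 ± 2.4, 1.96 ± 2.89 and 0.0875 ± 0.175 CPM in terminal combination, regressing and vehicle tumours. Others among the 10 most alike, at r of 0.76 to 0.86, were Rpl31-ps10, Rtn4rl1, Rpl22-ps1, Acer2, 3830403N18Rik, Gm4654, Gm10297 and Prl2c2. With group means removed, r was 0.87 for Apol11b. With group means kept, the members themselves reached 0.96 to 1.00, apart from Slc4a1 at 0.61. The mean contains each member, and the paired globins may share reads, so these values are raised by construction. They cannot be set beside those of other genes.

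Of 11 other globin genes, 2 passed the filter, Mb and Cygb, with median log2 differences of 2.65 in regressing and 1.56 in terminal combination tumours against vehicle. The embryonic genes were at or near the depth limit: Hba-x, Hbb-bh0, Hbb-bh1, Hbb-bh2 and Hbb-bh3 had at most 3 reads in every library, and Hbb-y, an embryonic beta-like globin, had at most 7 reads and 0 in 10 libraries. Myoglobin, Mb, the oxygen store of muscle, averaged 305 ± 345, 925 ± 1204 and 74.5 ± 64.1 CPM in terminal combination, regressing and vehicle tumours. Its correlation with the red cell genes was r = 0.34, and -0.01 with group means removed, and its DESeq2 adjusted p in regressing against vehicle tumours was 0.0172. Cytoglobin, Cygb, found in fibroblast-like cells, averaged 117 ± 49.9, 175 ± 59.9 and 55.2 ± 37.4 CPM. Against vehicle, Cygb differed by 1.67 ± 0.50 in regressing tumours (log2, SE; edgeR adjusted p = 0.254, DESeq2 adjusted p = 0.0392) and by 1.09 ± 0.49 in terminal combination tumours (edgeR adjusted p = 0.819).

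Of 14 haem synthesis and iron supply genes active beyond the red cell, all tested, 5 were higher and 9 lower in regressing than in vehicle tumours, with a median log2 difference of -0.05, and 6 were higher and 8 lower in terminal combination than in vehicle tumours, also with a median of -0.05. Fech, the ferrochelatase that inserts iron, averaged 73.4 ± 5.45, 90.4 ± 13.4 and 65.1 ± 4.02 CPM in terminal combination, regressing and vehicle tumours, and in regressing against vehicle tumours it had a log2 difference of 0.47 ± 0.13 (edgeR adjusted p = 0.24, DESeq2 adjusted p = 0.024). Steap3, an endosomal ferrireductase, averaged 77.4 ± 13.7, 157 ± 45.2 and 85.3 ± 37.5 CPM, with a log2 difference of 0.88 ± 0.30 in the same comparison (edgeR adjusted p = 0.281). Alad, the next enzyme after ALAS, averaged 27.8 ± 4.86, 27.5 ± 2.11 and 35.2 ± 11.2 CPM, and Tfrc, the transferrin receptor, averaged 45.3 ± 31, 42.5 ± 22.4 and 71.2 ± 22.9 CPM. Alas1, the form of the enzyme used outside red cells, averaged 46.5 ± 5.22, 52.4 ± 4.86 and 52.5 ± 6.25 CPM.

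Of the erythroid transcription factors and the erythropoietin receptor, 12 genes in all, Klf1, Gfi1b and Gata1 were near 0. Klf1, the erythroid KLF factor, and Gfi1b had at most 3 reads in any library, and Gata1 had at most 8. Gata1, too low to be tested, averaged 0.0372 ± 0.047, 0.316 ± 0.236 and 0.0606 ± 0.081 CPM in terminal combination, regressing and vehicle tumours. Among the 9 tested, 7 were higher and 2 lower in regressing than in vehicle tumours, with a median log2 difference of 0.33. In terminal combination against vehicle tumours 3 were higher and 6 lower, with a median of -0.04. Over all genes, 48.5% and 50.4% were higher in these comparisons. Lmo2, a partner of TAL1 that endothelial cells express as well, averaged 22.4 ± 9.12, 45.2 ± 14.1 and 21.9 ± 5.78 CPM in terminal combination, regressing and vehicle tumours, with a log2 difference of 1.04 ± 0.31 for regressing against vehicle (edgeR adjusted p = 0.254). Tal1 averaged 3.64 ± 1.82, 5.01 ± 0.525 and 3.89 ± 1.68 CPM, Nfe2 1.44 ± 1.32, 1.08 ± 0.497 and 0.659 ± 0.259 CPM, and the receptor kinase gene Kit 8.69 ± 7.64, 13.1 ± 3.67 and 10.4 ± 3.85 CPM.

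Among 18 genes of the red cell membrane and its skeleton, 13 were tested. In regressing against vehicle tumours 8 were higher and 5 lower, with a median log2 difference of 0.25, and in terminal combination against vehicle tumours 7 were higher and 6 lower, with a median of 0.05. Rhag, which encodes the Rh-associated glycoprotein of the red cell membrane, had at most 8 reads and was at 0 in 10 libraries. Sptb, beta spectrin, which skeletal muscle also makes, averaged 45.8 ± 34.4, 56.8 ± 49.7 and 9.04 ± 10.1 CPM in terminal combination, regressing and vehicle tumours, while its correlation with the 6 red cell genes was r = 0.46 and 0.03 with group means removed. Dmtn, dematin, averaged 5.79 ± 3.23, 7.67 ± 1.86 and 3.36 ± 0.709 CPM, Aqp1, a water channel of red cells and endothelium, 1349 ± 1525, 730.3 ± 173 and 509 ± 341 CPM, and Ermap 0.627 ± 0.548, 1.22 ± 0.941 and 1.69 ± 1.31 CPM.

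Of 18 red cell maturation and enzyme genes, 13 were tested. The median log2 difference was 0.14 in regressing and 0.28 in terminal combination tumours against vehicle. Of the 13, 10 and 11 were higher, where 48.5% and 50.4% of all genes were. In each comparison 1 of the 13 was higher with an unadjusted edgeR p under 0.05, beside 6.72% and 3.35% of all genes. Bnip3l, which clears mitochondria from maturing red cells, averaged 113 ± 17.8, 114 ± 20.2 and 93.1 ± 14.1 CPM in terminal combination, regressing and vehicle tumours, and its correlation with the 6 genes was 0.35. Mkrn1 averaged 56.3 ± 8.93, 55.9 ± 7.78 and 46.4 ± 6.9 CPM and Tent5c 9.53 ± 6.24, 15.7 ± 7.94 and 9.43 ± 3.42 CPM.

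Of 13 tested genes that clear haemoglobin and haem, 12 were higher in regressing than in vehicle tumours, where 48.5% of all genes were. The median log2 difference was 0.41, and 2 of the 13 were higher with an unadjusted edgeR p under 0.05, beside 6.72% of all genes. In terminal combination tumours 8 were higher and 5 lower than in vehicle tumours, with a median of 0.29, where 50.4% of all genes were higher. There 3 were higher with an unadjusted edgeR p under 0.05, beside 3.35% of all genes. Hp, haptoglobin, the plasma protein that binds free haemoglobin, averaged 49.7 ± 48.8, 186 ± 121 and 10.9 ± 5.15 CPM in terminal combination, regressing and vehicle tumours. Its log2 difference of 4.09 ± 0.85 in regressing tumours had an edgeR adjusted p of 0.236, the smallest of any gene in that comparison, and a DESeq2 adjusted p of 4.95e-05. Hp is also expressed by fat cells, and the 11 adipocyte genes summed to 279 to 2381 CPM in regressing and 25 to 154 CPM in vehicle tumours; their part in the result was not tested. Cd5l, a macrophage gene, averaged 0.776 ± 0.822, 2.28 ± 2.15 and 0.401 ± 0.539 CPM, Lrp1, a receptor that takes up haemopexin-bound haem, 915 ± 286, 723 ± 119 and 543 ± 148 CPM, and the biliverdin reductase gene Blvra 21.7 ± 0.93, 28.6 ± 5.07 and 24.7 ± 3.18 CPM.

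Other components of blood were read beside the red cell genes. Of 12 platelet genes 5 were tested, with medians of 0.52 in both treated groups against vehicle; Gp1bb had 0 reads in all 12 libraries. Ppbp, a platelet chemokine, averaged 0.818 ± 0.728, 1.36 ± 1.41 and 0.172 ± 0.142 CPM in terminal combination, regressing and vehicle tumours and correlated with the 6 genes at 0.69. Nrgn averaged 2.15 ± 2.91, 1.06 ± 0.714 and 0.586 ± 0.437 CPM, while the integrin genes Itgb3 and Itga2b correlated with the 6 genes at -0.02 and 0.03. Of 16 neutrophil and marrow granulocyte genes 7 were tested, with medians of 0.26 in regressing and -0.56 in terminal combination tumours against vehicle. The calcium-binding neutrophil genes S100a8 and S100a9 averaged 0.997 ± 0.737 and 0.677 ± 0.466 CPM in terminal combination tumours, 1.51 ± 1.3 and 1.48 ± 1.08 CPM in regressing tumours and 4.17 ± 5.97 and 7.44 ± 12 CPM in vehicle tumours. Single tumours carried the vehicle means, since S100a8 ranged from 0.428 to 13.1 CPM and S100a9 from 0.642 to 25.4 CPM in that group. Their correlations with the 6 red cell genes were -0.12 and -0.27. Lcn2, which other cells make too, averaged 6.27 ± 7.11, 7.87 ± 5.22 and 1.68 ± 1.1 CPM, and the proteinase gene Prtn3 averaged 0.647 ± 0.158, 1.67 ± 0.935 and 1.28 ± 1.16 CPM.

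Markers of tissues other than blood varied between tumours as well. The 15 skeletal muscle genes were all tested, though Myh2 had 0 reads in 1 library. Their sums were 3223 to 39594 CPM in terminal combination, 4869 to 63928 CPM in regressing and 686 to 11016 CPM in vehicle tumours. The 11 adipocyte genes summed to 105 to 684 CPM, 279 to 2381 CPM and 25 to 154 CPM in the same order, and the 12 endothelial genes, which mark vessels, to 363 to 764 CPM, 702 to 912 CPM and 344 to 901 CPM. Against vehicle, the median log2 difference of the muscle genes was 3.11 in regressing tumours, with 15 of 15 higher, and 2.12 in terminal combination tumours, with 14 of 15 higher. For the adipocyte genes it was 3.90 and 2.44, with 11 of 11 higher in both. Over all genes, 48.5% were higher in regressing and 50.4% in terminal combination tumours. The endothelial genes had medians of 0.30 in regressing and -0.01 in terminal combination tumours. The part of these tissues in the red cell values was not tested. Regressing replicate 2 held the most red cell message, at 2138 CPM over the 6 genes. Its muscle, adipocyte and endothelial sums, 4869, 279 and 702 CPM, were the lowest of its group. Terminal combination replicates 1 to 4 had red cell sums of 382, 785, 403 and 1035 CPM. Their adipocyte sums, 105, 414, 189.7 and 684 CPM, had the same order. Replicate 4 also had the highest endothelial sum of that group, 764 CPM, and replicate 2 the highest muscle sum, 39594 CPM. In vehicle tumours the highest red cell sum, 373 CPM in replicate 4, stood beside 87.5 CPM of adipocyte genes, and replicate 1 had 154 CPM.

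**Figure D4:**
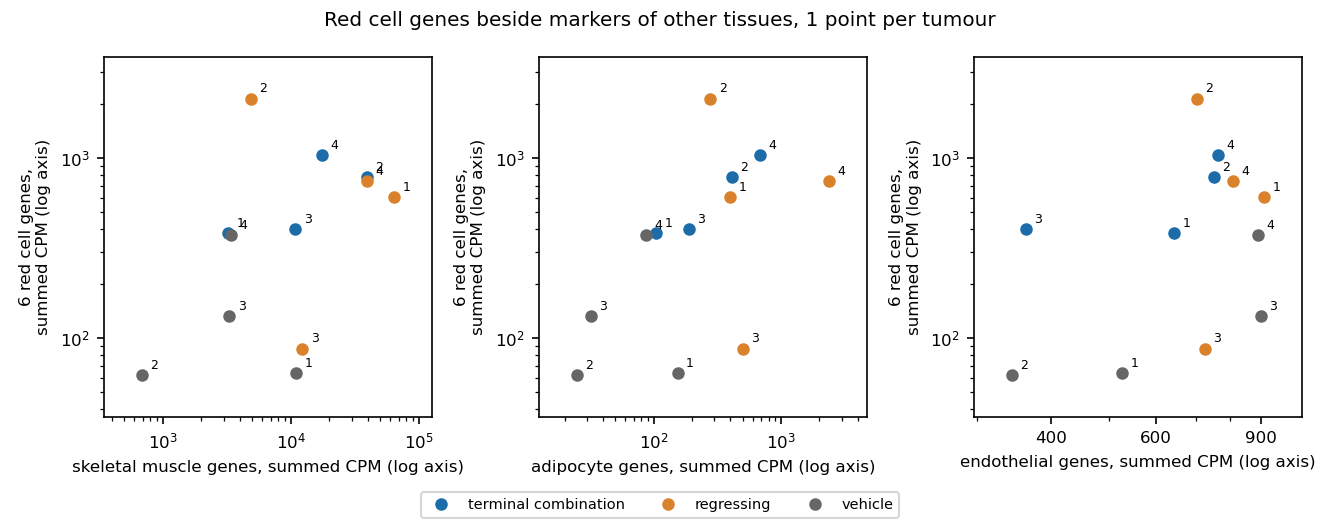
Summed CPM of the 6 red cell genes against summed CPM of skeletal muscle, adipocyte and endothelial genes, all axes logarithmic, with 1 point per tumour numbered by replicate and coloured by group. Regressing replicate 2 tops the red cell axis at 2138 CPM with 4869 CPM of muscle genes. Regressing replicate 3 lies at 87 CPM with 12336 CPM of muscle genes. Terminal combination replicate 4 tops its group on the red cell axis at 1035 CPM and on the adipocyte axis at 684 CPM.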

How the data were processed

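The deposited values are whole-number counts of reads per Ensembl gene, 1 table per tumour. Per the labels, RNA came from the RNeasy mini kit and libraries from the TruSeq Stranded mRNA kit. The submitters' processing notes name HISAT2 2.2.1, Salmon, DESeq2 1.24.0, mm10 and GRCm38.p6; the counting tool and strand are not given in the sources used here. Names and exon lengths came from GENCODE M21, in which 54495 of 54532 identifiers had a symbol. No pair of libraries agreed within sampling noise (lowest chi-square per degree of freedom 56.8).

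Groups follow the treatment and harvest labels. Genes were filtered with filterByExpr (minimum count 10, minimum total 15), normalised by TMM and tested with edgeR 4.0.16 (quasi-likelihood, all 12 libraries, R 4.3.3), with Benjamini-Hochberg adjustment over the 15650 genes tested and a threshold of 0.05. CPM use the TMM-adjusted library size, and log2 CPM for correlations a prior count of 2. Standard errors come from the log2 difference and its F statistic. Both tests were first tried on simulated data with known changes between regressing and vehicle libraries. Over all draws, DESeq2 made 97 calls among unchanged genes and edgeR 8. Of 100 genes changed 4-fold, DESeq2 recovered 75 and edgeR 62, and of 100 changed 8-fold, 90 and 83. The changed genes were drawn at random, and the simulated counts used dispersions that edgeR had estimated. The recovery thus does not describe the red cell genes, and the comparison of the tools holds for that setting only. With this limit, DESeq2 calls are read with more caution because of its 97 calls among unchanged genes. DESeq2 1.42.0, other filters and scalings, and leaving out libraries were alternatives. Python 3.11.15, scipy 1.17.1 and matplotlib 3.10.9 did the rest.

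The red cell genes and the 13 gene lists (173 symbols, 172 found) were chosen with earlier results of these data known. Genes named were the 7 set members, up to 4 genes per list with the smallest p in the test of any group difference, the 10 genes most correlated with the mean of the members, and transcription factors and embryonic globins at or under the limit of a 0 count. Nes, Hbb-y, Alas1, Gata1, Rhag, Gp1bb and Apex2 were named after their values were seen. Some genes that meet the rule are not reported here. Counts of reads carry no molecular identifiers, so limits and intervals cover counting error only. The correlations are descriptions over 12 libraries.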

Additional observations from a re-analysis of the deposited data

Results flagged for a closer look

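Of 18 combinations of a gene and a group, 2 held a tumour far from the other 3 of its group by Dixon's ratio of gap to range at the 95% level, where chance gives about 1 in 20. Alas2 in terminal combination replicate 4 was at 40.8 CPM, with the others at 9.89 to 14.5 CPM and a ratio of 0.850. Slc4a1 in regressing replicate 2 was at 5.34 CPM, with the others at 0 to 0.892 CPM and a ratio of 0.833. Each of these tumours also had the highest Hbb-bs level of its group, 452 and 908 CPM.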

How the results depend on the processing

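The 23 alternatives gave 413 values for single genes, of which 397 kept their direction and their side of the 0.05 threshold, 4 crossed it and 12 changed direction. The 4 are Hba-a1, Hbb-bs, Hbb-bt and Alas2 under DESeq2 in regressing against vehicle tumours. The 12 are the 6 genes in terminal combination against regressing tumours without regressing replicate 2, in edgeR and in DESeq2. With DESeq2 and without that tumour, an alternative added after seeing the data, the log2 differences were 0.31 (Hba-a1), 0.37 (Hba-a2), 0.46 (Hbb-bs), 0.90 (Hbb-bt), 0.85 (Alas2) and 1.19 (Slc4a1). With 1 library left out at a time in edgeR, that difference ran from -0.91 to 0.30 for Hba-a1, -0.74 to 0.36 for Hba-a2, -0.87 to 0.45 for Hbb-bs, -0.81 to 0.89 for Hbb-bt, -1.02 to 0.83 for Alas2 and -1.72 to 1.14 for Slc4a1. Against vehicle, Hba-a1 ran from 1.72 to 3.52 in regressing and 1.73 to 2.97 in terminal combination tumours.

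The number of all genes called was 0 in edgeR for every comparison. DESeq2 called 495 in regressing against vehicle, 11 in terminal combination against vehicle, 82 in terminal combination against regressing tumours and 284 for any difference, and 4 red cell genes in the first. Without regressing replicate 2 it called 625, 21, 21 and 383, and among libraries lacking FFT, also added later, 255, 204, 84 and 207; it called 0 red cell genes in both. With 1 library left out, edgeR called 0 to 1 genes for any difference and for terminal combination against regressing tumours, the 1 being without terminal combination replicate 4. The cause of these shifts was not tested. Slc4a1 had too few reads to be kept when only terminal combination and vehicle libraries were fitted. No paired analysis was possible because the labels give no replicate numbers, and any 2 groups have at most 1 of the unexplained numbers in their titles in common.

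With 4 tumours a group, a spread of up to 26.4-fold within a group and 0 edgeR calls among all genes, a missed threshold does not show equal levels. Depth limits Slc4a1, with 0 to 92 reads, and Klf1, Gfi1b, Gata1 and Rhag.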
